A study of Mus musculus with 96 samples.

Results

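Splicing events annotated as trans-splicing were described in 96 single granulocyte-monocyte progenitors (GMP) from mouse bone marrow. Members were chosen by the deposited splicing table's annotation and selected on having a PSI value in at least 20 of the 96 cells, so their presence in many cells is no finding. Of 2553 events with the annotation, 2045 had a value in at least 1 of the cells and 374 in at least 20. They stand among 19295 events of all annotations that passed the same minimum, out of 80855 in the table. PSI, explained below, is a share of junction reads. The 15 members with exactly 20 values had a median mean PSI of 0.894, and the 14 annotated events just outside the minimum, with 19 values, had one of 0.840.

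All cells were C57BL/6 and ThPOK-/-, that is, without the transcription factor ThPOK. The age of the mice, the number of animals and the form of the knockout allele are not given in the sources used here. The cells were enriched for CD117, the receptor Kit, sorted and captured on a Fluidigm C1 chip, and full-length cDNA was made with a SMARTer kit. No animal is named, so the 96 cells are 1 sample, every value is a description of it, and no test was made. A deposited annotation placed 12 cells in the state proNeu-1, 31 in IG2 and 26 in Multi-Lin-1, and 27 cells had no state. Cells carry a label number, 078 or 079 (48 cells each), whose meaning is not given. The progenitor markers Mpo, Elane, Prtn3, Ctsg and Ms4a3 were at a TPM (a length-scaled transcript level) of 1 or more in 96, 92, 87, 83 and 72 cells. Markers of other cell types were present too: Gata2, Cpa3 and Mcpt8 of mast cells and basophils in 61, 57 and 51 cells, and Gata1, Klf1 and Hba-a1 of erythroid cells in 35, 14 and 3. Of the B-cell markers Cd79b was in 25 cells and Cd79a in 0, and of the T-cell markers Cd3d was in 8 and Cd3e and Cd3g in 0. Their part in the results was not tested. Genes detected per cell, at that same TPM, ranged from 1019 to 5203, with a median of 3353. Read depth is not known for either measure.

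In splicing, the spliceosome removes an intron and joins the exons that flank it, and the intron nearly always ends in the bases AG. Trans-splicing proper joins exons that come from separate RNA molecules, and is rare in mammals. A read that joins exons of neighbouring genes can also come from a transcript that runs on from one gene into the next. Genes that arose by duplication share long stretches of sequence, so that a short read may match either copy. The label trans-splicing in this table is a computed annotation given to events with ends in different genes.

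PSI (percent spliced in, given here as a fraction from 0 to 1) is the share of junction reads that takes the examined junction rather than the background one. A junction whose ends carry the IDs of different genes is called a 2-gene junction here. It was the background junction in 305 members (81.6%), the examined junction in 59, and both in 10. The 374 members rest on 139 distinct 2-gene junctions between 94 pairs of genes, since 1 such junction can serve as background to many within-gene junctions. Members are therefore not independent of each other. For each 2-gene junction and cell a 2-gene share was computed, as PSI where the 2-gene junction was examined and as 1 − PSI where it was the background, averaged over its members. The second form is the share that the within-gene junction did not take, and can include other junctions. Where an annotated event and its mirror image were both in the table, the pair of PSI values summed to 1 in 907 of 1236 cell values (73.4%, tolerance 1e-06), so 1 − PSI is no exact measure of the 2-gene junction. In 85 of the 1236 the pair summed to 0, where 1 − PSI gives 1 for a junction with a PSI of 0. Over events of all annotations with at least 20 values, the sum was 1 in 168241 of 186776 (90.1%). The annotated set has no such minimum, so the 2 percentages are not from like sets.

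The bases at the joins are shown for the junctions the results turn on, and did not define the kinds described below. All bases were read from GENCODE M21 transcripts (GRCm38). In the first set the second end of the junction lies at the transcript start of another gene, most of them abundantly expressed. The 20 bases from the join onward are in capitals, and the 10 bases before it, which belong to the same exon, are in lower case. The positions are those of the last base before and the first base after the join.

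Rpl23, joined from a Plxdc1 intron, chromosome 11, minus strand, 97956356 to 97782381: ctaacttcctTTCTGACCCTTTCCGGGCGT
Gapdh, joined from inside a Ncapd2 exon, chromosome 6, minus strand, 125176642 to 125165605: cctccctggtGCTCTCTGCTCCTCCCTGTT
Cope, joined from a Sugp1 intron, chromosome 8, plus strand, 70049901 to 70302778: tacgtgtcccAGAAGAAGGTTGGTTAGAGG
Aldoa, joined from a Kif22 intron, chromosome 7, minus strand, 127037825 to 126799184: gcctcccgtcCCCCCCAACCCAGCTGAATA
Fxyd5, joined from a Hpn intron, chromosome 7, minus strand, 31113934 to 31042112: tgacacttcaGTCTGGAGATCTCCGGCTCA
Rps19, joined from an Ethe1 intron, chromosome 7, plus strand, 24591400 to 24884634: cccgtcgttcCCTTTCCCCTGGCTGGCAGC
Ppia, joined from an Ogdh intron, chromosome 11, plus strand, 6346777 to 6415877: cgctttgcagACGCCACTGTCGCTTTTCGC

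Of these 7, only the Ppia end has AG just before the join. In the second set both ends lie at exon boundaries of genes that are copies of each other. Each line gives 30 bases on 1 side of the join, and capitals mark the bases at which the joined gene differs from the other gene's own junction at the same place. Where a sequence has no capitals, those bases alone cannot tell the copies apart.

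Gstp2, before the join to Gstp1 (chromosome 19, minus strand, 4041584 to 4037191): tggatgcaaggcttgctcaagcccacttgt
Gstp1, before its own junction at that place: tggatgcaaggcttgctcaagcccacttgt
Gstp1, after the join from Gstp2: ctgtatgggcagctccccaagtttgaggat
Gstp2, after its own junction at that place: ctgtatgggcagctccccaagtttgaggat
Lyz1, before the join to Lyz2 (chromosome 10, minus strand, 117291029 to 117278721): ctAAgaatgcctgtgggatcaattgcagtg
Lyz2, before its own junction at that place: ctGTgaatgcctgtgggatcaattgcagtg
Lyz2, after the join from Lyz1: ctctgctgcaggatgacatcactgcagcca
Lyz1, after its own junction at that place: ctctgctgcaggatgacatcactgcagcca
Fcgr2b, after the join from Fcgr3 (chromosome 1, minus strand, 171057691 to 170966700): actggctgctgctccagacccctcagcTgg
Fcgr3, after its own junction at that place: actggctgctgctccagacccctcagcGgg

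The last pair shows, for contrast, neighbouring genes with no likeness, Prr13 and Pcbp2.

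Prr13, before the join to Pcbp2 (chromosome 15, plus strand, 102460719 to 102473285): AAGtCGcAcAAGCATCacAAgcAcGGGAag
Pcbp2, before its own junction at that place: CTTtTCcCcTCAGTCGacTCgcGcCTCCag

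The 139 2-gene junctions had both ends on 1 chromosome in every case, over 19 chromosomes in all. The deposited coordinates name 1 chromosome for each junction, so a join between chromosomes could not be seen. For the 132 with both genes in GENCODE, both genes lay on the same strand and the second lay downstream of the first in the direction of transcription. Whether joins between strands or in the reverse order could be listed at all is not known. The distance between the ends ranged from 1354 to 1234611 bases, with a median of 88515, and was at most 100 kb in 72 of the 139. Genes were called neighbouring where the ends were at most 100 kb apart, and paralogous where their symbols shared a stem of at least 3 characters up to the first digit. By these rules 74 members joined genes that were both, 109 neighbouring genes only, 30 paralogous genes only, and 161 genes that were neither. Of the first ends 13 of 138 and of the second ends 10 of 133 lay outside the gene whose ID they carry, as GENCODE M21 draws it. Of these, 6 and 7 carry an ID named Srp54b in the table, which GENCODE M21 gives to Srp54c. Both ends lay within the bounds of 1 GENCODE gene in 12 of the 139 junctions, and 1 junction, labelled Myl12a to Myl12b, was an annotated intron of Myl12b, a myosin light chain gene. A stem misses copies with unlike names, such as Slc28a2 and Gm14085. Counting pairs whose transcripts aligned over at least 200 bases at 80% identity as paralogous too, a rule added after the data were seen, gave 104, 79, 47 and 144. A limit of 50 kb in place of 100 kb gave 38, 46, 66 and 224.

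For the description that follows, the 139 junctions were placed in 4 kinds, chosen after their values were seen. Junctions between genes alike in name or sequence were the most numerous, 81 junctions of 41 gene pairs with 151 members. Junctions between unlike genes whose second end lay within 50 bases of an annotated transcript start, with at least 1 end off an exon boundary, numbered 27, with 160 members from 23 pairs. Another 13 junctions joined exon boundaries of unlike genes (18 members), and 18 fitted none of these (45 members). The second end lay within 50 bases of a transcript start in 35 of 133 2-gene junctions with an annotated second gene (26.3%, exact 95% interval 19.1 to 34.7%, which covers counting only). It did so in 1638 of 18819 within-gene junctions examined in the other events (8.70%, interval 8.30 to 9.12%).

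Mean PSI over the cells with a value lay between 0.1 and 0.9 in 81 of the 374 members (21.7%), against 11.1% of the 18921 other events. The share was 22.2% among alternative promoter events and 31.3% among alternative C-terminus events, so other annotations reach it too. The median of the mean PSI was 0.173 over members and 0.104 over the other events. That median hides opposite groups. Where the 2-gene junction alone was examined, the median mean PSI was 0, 58 of 59 members were under 0.1, and 46 were at 0 in every cell. Where it was the background alone, the median was 0.853, with 130 of 305 members over 0.9 and 96 under 0.1.

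**Figure D1:**
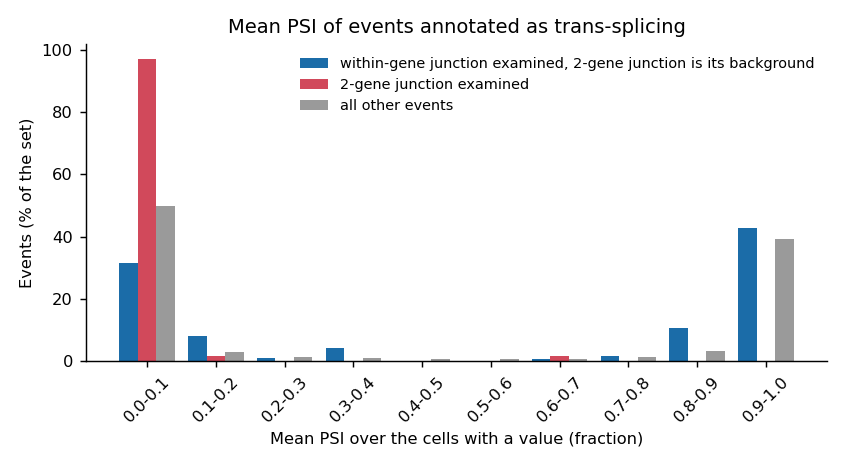
Percent of events (vertical axis) by mean PSI in bins of 0.1 (horizontal axis), for members with the 2-gene junction as background (blue, 305), members in which it was examined (red, 69) and all other events (grey, 18921). Nearly all red events fall in the lowest bin (97.1%), while the blue ones fall mainly in the lowest (31.5%) and the highest (42.6%).

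Most 2-gene junctions took little or none of the reads. In 51 of the 139 junctions (36.7%) no cell had a 2-gene share above 0, and in 14 the mean share was 0.5 or more. Of those 14, 13 ended at the start of the second gene, and the other was Fbxo47 to Rpl23, which ends in the coding part of Rpl23.

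The junctions that end at the start of the second gene had a median mean share of 0.197, against 0.00151 for alike genes, 0.000212 for exon boundaries of unlike genes and 0.00123 for the rest. The 2-gene junction was examined in 9 of 160 members of the first kind and in 50 of 151 members of alike genes. The medians thus hold direct PSI and 1 − PSI in unequal parts, and are not on the same footing. In the first kind the second ends lay from 23 bases upstream to 35 bases downstream of the nearest annotated start, 18 of 27 within 5 bases. All 27 lay inside an annotated exon and 2 in a coding part. The first end was in an intron, per the table's own labels, in 22 of 27. Bases before the second end could be read for 23 of them, and AG preceded 1, at Ppia. The first gene had a median TPM of 0 in 16 of the 22 junctions with expression values for both genes, and the second gene had the higher median TPM in 20 of 22. TPM is a level per length and can be compared between genes.

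Plxdc1, a plexin domain-containing membrane protein, and Rpl23, a protein of the large ribosomal subunit, gave the members with values in the most cells. All 6 events examined a junction within Plxdc1 (ENSMUSG00000017417) against the junction from its intron to Rpl23 (ENSMUSG00000071415), which lands 1 base from a transcript start. PSI was 0 in all 94 cells with a value, in every event. The 2-gene share was thus 1 in 12 of 12 proNeu-1, 31 of 31 IG2, 26 of 26 stateless and 25 of 25 Multi-Lin-1 cells. Plxdc1 reached a TPM of 1 in 0 of 96 cells and Rpl23 in 96, with a median of 1407 TPM. A junction within an undetected gene has few or no reads. The share of 1 in each state is thus largely set by the measure. The events therefore carry the Plxdc1 name in cells where that gene was not detected. The same held for Fbxo47, whose intron is joined to Rpl23 in 8 events: the share was 0.986 ± 0.0918 (mean ± SD over 42 cells, as for all such pairs below), with Fbxo47 at a TPM of 1 in 1 of 96 cells.

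Ppp1r16a, a regulatory subunit of protein phosphatase 1, was joined to Rpl8, another ribosomal protein gene, in 10 events. The share ranged from 0.867 to 1 over 83 cells, with a median of 1. Ppp1r16a was detected in 6 of the 96 cells and Rpl8 in all 96, at a median of 2686 TPM. Il27, a cytokine subunit, and Eif3c, a translation initiation factor subunit, gave a share of 1 in all 37 cells with a value, with Il27 at a TPM of 1 in 0 cells. As for Plxdc1, that share is largely set by the measure.

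Other second genes with high TPM came from several processes. Hpn, the serine protease hepsin, joined to Fxyd5, a regulator of the sodium pump, had a share of 0.971 ± 0.149 over 44 cells. It was 1 in the median cell and 0.061 in the lowest, and Hpn was detected in 2 cells. Mast2, a kinase, joined to Uqcrh, a subunit of respiratory complex III, had 0.958 ± 0.171 over 40 cells. P3h3, a collagen-modifying enzyme, joined to Tpi1, triosephosphate isomerase of glycolysis, had 0.991 ± 0.0589 over 47 cells. Frmd6 joined to Psma3, a proteasome subunit, had 0.989 ± 0.0483 over 34 cells, and Chka, choline kinase, joined to Ppp1ca, a catalytic subunit of protein phosphatase 1, had 0.95 ± 0.201 over 52 cells.

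Ncapd2, a condensin subunit, and Gapdh, the glycolytic enzyme, allowed a direct reading, since the 2-gene junction was both examined and background among the 17 events. Its own PSI ranged from 0.00129 to 1 over 76 cells, with a mean of 0.653 ± 0.382 and a median of 0.824. The 2-gene share over all 17 events was 0.889 ± 0.212, higher than the direct PSI. Ncapd2 was detected in 33 of the 76 cells and Gapdh in all 76. Of the 13 junctions in this kind with a mean share of 0.5 or more, Ncapd2 to Gapdh was the only one with a direct PSI. The other 12 rest on 1 − PSI.

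Where the first gene was detected in over 90% of the cells with a value, the mean share was below 0.2. Ethe1, a mitochondrial sulfur dioxygenase, joined to Rps19 of the small ribosomal subunit, had a share of 0.0498 ± 0.196, with 8 of 36 cells above 0 and Ethe1 detected in all 36. Ogdh, a subunit of a citric acid cycle enzyme, joined to Ppia, cyclophilin A, had 0.0906 ± 0.261 over 27 cells, all with Ogdh. Spop, an adaptor of a ubiquitin ligase, joined to Phb, prohibitin, had 0.110 ± 0.297, with Spop detected in 42 of 44 cells. Ppp6c, a phosphatase, joined to Rpl35, had 0.197 ± 0.356, with Ppp6c in 27 of 29. Baz1a, a chromatin remodelling subunit, joined to Snx6, a sorting nexin, had 0.168 ± 0.312, with Baz1a in 46 of 47.

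Over the 22 junctions of this kind with expression values, mean share and the percent of cells with the first gene had a Spearman rho of -0.69 and a Pearson r of -0.66. Where the share is 1 − PSI of a junction within the first gene, it depends on reads of that gene. The relation is therefore built into the measure in part. The points share libraries and the same cells, and the coefficients are descriptions. The first gene was detected in 0 to 58% of the cells in the 13 junctions with a share of 0.5 or more. Exceptions at the low end were Hoxc4 to Copz1, with a share of 0.0849 although Hoxc4 was detected in 0 cells, and both Desi1 to Phf5a junctions (0.0219 and 0.122). These last 3 are examined against another junction from the same place that ends a few bases away, and not against a junction within the first gene, so their share is not on the same footing.

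**Figure D2:**
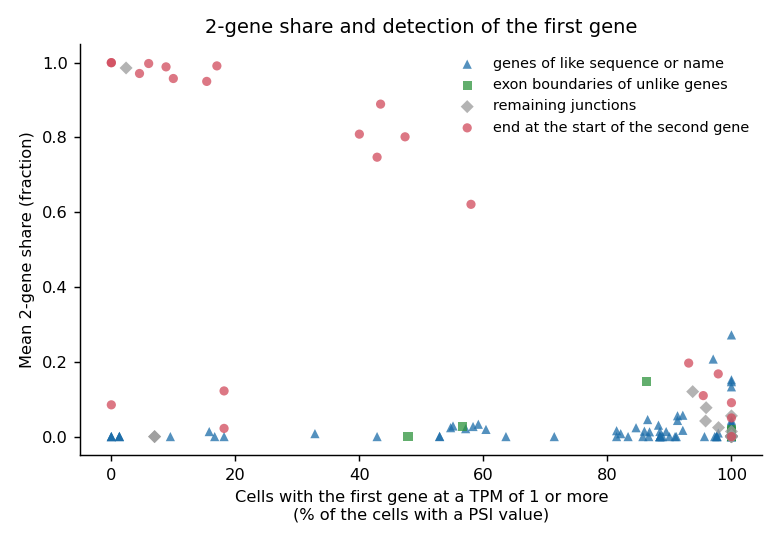
Mean 2-gene share of each junction (vertical axis) against the percent of cells with a PSI value in which the first gene was at a TPM of 1 or more (horizontal axis), 1 point per junction, coloured by kind. Red points, which end at the start of the second gene, lie above 0.6 where the first gene was detected in at most 58% of cells, apart from 3 points near the lower left, and below 0.2 where it was detected in over 90%. Most shares are 1 − PSI of a junction within the first gene, so the relation is built in, in part.

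Within a junction the same relation was seen from cell to cell. Kif22, a mitotic kinesin, joined to Aldoa, the glycolytic aldolase, had a share from 0 to 1 over 50 cells, with a median of 0.697 and a mean of 0.621 ± 0.403. Spearman's rho between the share and log2(TPM + 1) of Kif22 was -0.92. For Sugp1, a splicing factor, joined to Cope, a coatomer subunit, the share was 0.809 ± 0.327 over 50 cells and rho was -0.94. For Ncapd2 to Gapdh rho was -0.79, and for Hpn to Fxyd5 -0.83, the last resting on 2 cells. Over the 19 junctions in which both varied, rho had a median of -0.51, from -0.94 to 0.13, and was below 0 in 18. Against the second gene it had a median of 0.14, from -0.18 to 0.56. Some of the 19 rest on few cells. Ech1 to Lgals4, with the rho of 0.13, had a share above 0 in 1 of 64 cells. The Desi1 to Phf5a junctions had it in 1 and 4 of 22, and their share is not on the same footing, as said above. Arel1 to Npc2 and Desi1 to Phf5a each enter more than once. PSI of a within-gene junction and the expression of that gene come from the same reads, so a relation between them is built into the measure in part.

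**Figure D3:**
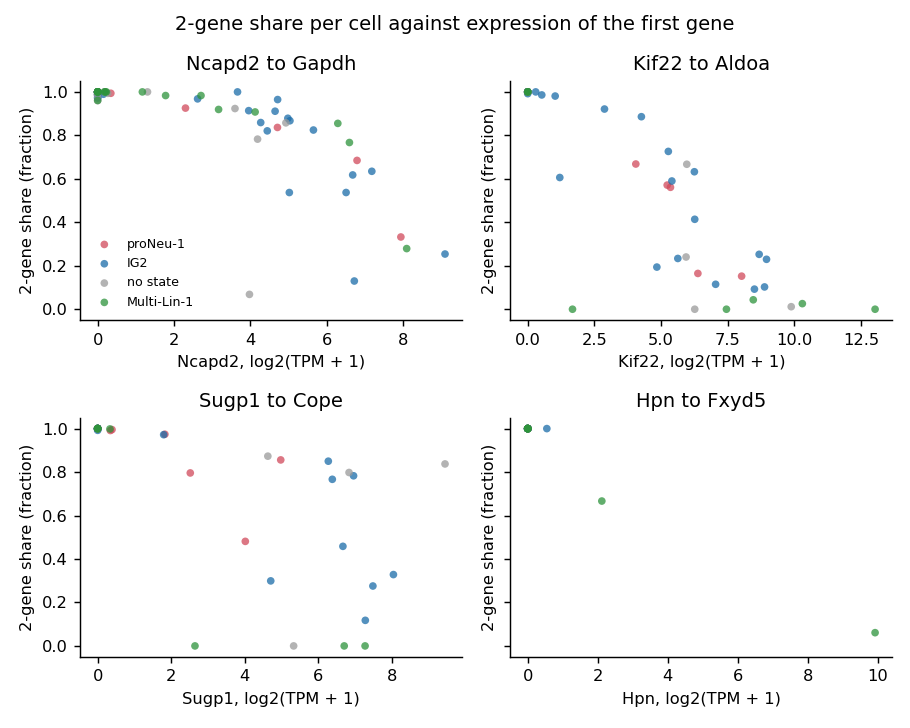
2-gene share per cell (vertical axis) against log2(TPM + 1) of the first gene (horizontal axis) for 4 junctions, 1 point per cell, coloured by state. Cells without the first gene lie at or near 1, and cells with more of it lie lower. The Hpn panel has only 2 cells below 1.

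Junctions between alike genes showed the reverse, many joins with a low 2-gene share. Among those with expression values (71 junctions), the first gene was detected in a median of 88.5% of cells. For junctions that end at a start (22) it was 29.1%, and the part of this difference in the shares was not tested. Of the 81, 35 had no cell above 0, and the highest mean share was 0.272. The bases before the join could be compared with the other gene's own junction in 57 cases. In 39 of these all 30 were identical, and in 47 at most 2 differed. After the join 43 of 59 were identical and 48 had at most 2 differences. Of the 56 junctions compared on both sides, 49 were identical on at least 1 side and 29 on both. Among the 9 junctions of unlike genes that could be compared before the join, none was identical and the median was 23 differences of 30. Genes were called alike by name or by transcript sequence, so this contrast was largely set in advance.

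**Figure D4:**
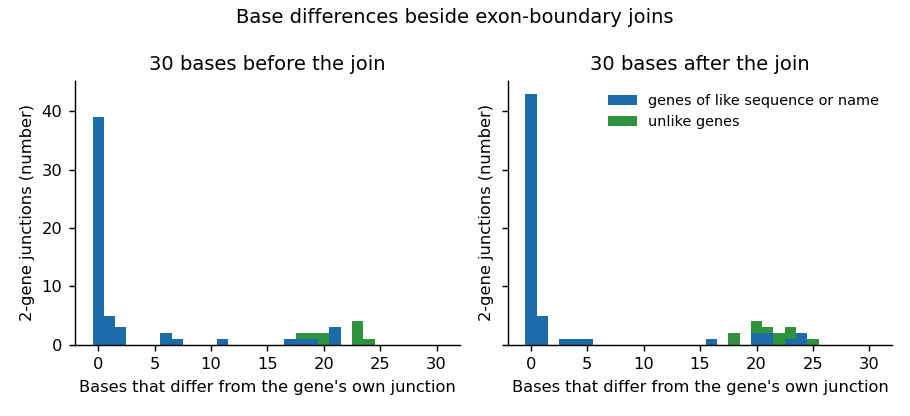
Number of 2-gene junctions (vertical axis) by the number of bases, of 30, that differ from the gene's own junction (horizontal axis), before the join (left) and after it (right), for alike genes (blue) and for unlike genes joined at exon boundaries (green). The tallest bars are at 0 differences, 39 and 43 junctions, all of alike genes, and unlike genes have about 20. The kinds were themselves set by likeness of name or transcript sequence.

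The glutathione S-transferases Gstp2 and Gstp1 lie 4393 bases apart at these ends and gave 7 events on 3 junctions. The first, whose bases are shown above, had a share above 0 in 12 of 77 cells, at most 0.0167. The other junctions had 0 of 77, which allows a share of cells of up to 3.90%. Gstp2 reached a TPM of 1 in 1 cell and Gstp1 in 88. In the first junction and 1 of the others all 30 bases on both sides are identical, so those bases alone cannot assign a read to 1 copy. A longer read may reach bases that differ, as the transcripts align at 94.2% identity over 798 bases. How reads were assigned was not tested. The remaining junction skips an exon and has 21 and 20 differences. Expression of genes alike in sequence carries the same doubt, since reads they share are divided by an estimate. Pairs alike in name only, such as Snx2 and Snx24 with 0 aligned bases, are not covered by this.

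Dynlt1b and Dynlt1c, which encode a dynein light chain, gave 3 events with values in up to 84 cells. The 2-gene junction had a share of 0 in all 84, which allows up to 3.57% of cells. Both genes were common, at a TPM of 1 in 72 and 76 of those cells. Tuba1a and Tuba1b, alpha-tubulin genes, had a share above 0 in 5 of 67 cells, the highest at 0.331. Gstm1 and Gstm3 had it in 9 of 44 cells, none over 0.0370, and Gstm3 was detected in 0 cells.

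Receptors and surface proteins of myeloid cells were among the alike genes. Fcgr3 and Fcgr2b, receptors for the constant part of IgG, had a share above 0 in 12 of 51 cells for the junction shown above, with a mean of 0.0167 ± 0.0664 and a highest value of 0.333. A second junction of the same genes, with 20 of 30 bases different after the join, had 0 of 43, which allows up to 6.98%. Ly6c2 and Ly6c1, monocyte surface antigens, had a share above 0 in 20 of 27 cells, from 0 to 0.208 with a median of 0.0151. A second junction of the same genes had it in 0 of 26, which allows up to 11.5%. The first was read almost wholly in 2 states, with values in 12 proNeu-1, 13 IG2, 2 stateless and 0 Multi-Lin-1 cells. Lyz1 and Lyz2, the lysozymes, had it in 3 of 28 cells, the highest at 0.322.

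Larger families gave several junctions at successive exons. Srp54a, Srp54b and Srp54c, copies of the GTPase of the signal recognition particle, gave 13 junctions at their exon boundaries, with names as the table gives them. Their mean shares ran from 0 to 0.0330. Pnp and Pnp2, purine nucleoside phosphorylases, gave 5 junctions, 3 of them with no cell above 0, and all 5 within the bounds that GENCODE draws for Pnp. Selenbp2 and Selenbp1 gave 6, with mean shares from 0 to 0.147, and Mfap1a and Mfap1b gave 4, from 0 to 0.0557.

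Slc28a2, a nucleoside transporter, and Gm14085, a predicted gene alike over 3748 bases at 95.9% identity, gave the junction with the highest mean share among alike genes. Their 5 junctions had mean shares of 0.0316, 0.0359, 0.133, 0.152 and 0.272. In the last, 15 of 20 cells were above 0, and the range was from 0 to 1 with a median of 0.0656. Gm14085 itself was detected in 8 of the 96 cells and Slc28a2 in 42. The predicted genes 2610005L07Rik and 6820431F20Rik, also alike, had 0.207 ± 0.292 over 34 cells at 1 junction and 0.0571 ± 0.212 over 51 at another.

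Joins between exon boundaries of unlike genes were few. Prr13 to Pcbp2, a poly(C)-binding protein, had a share above 0 in 2 of 59 cells, 1 of them at 1. Lypla1 to Tcea1, a transcription elongation factor, had it in 7 of 53 cells, with a mean of 0.0268 ± 0.143, and the reverse pair of the same genes, Tcea1 to Lypla1, in 0 of 56. The end labelled Lypla1 lies inside Tcea1 in both, as GENCODE draws the genes, so these 2 joins do not leave Tcea1. Denr to Ccdc62 had it in 1 of 41 cells. Rcc1 to Snhg3, Prelid3b to Atp5e and Lsp1 to Tnnt3 had none, in 46, 28 and 21 cells. The highest mean share, 0.147, was that of Gm1604b to Rps6ka2, with 7 of 22 cells above 0. That pair could not be compared for sequence likeness and was placed here by default. Unlike means only that the rule for likeness was not met. Rcc1 and Snhg3, for instance, aligned at 99.1% identity over 111 bases, and both ends of their join lie within 1 gene.

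Both genes of a member were detected in at least 50% of the cells with a PSI above 0 in 196 of 280 members that could be counted. That count speaks mainly of the within-gene junction. Over cells in which the 2-gene share was above 0 it was 77 of 261 (29.5%), a reading added after the data were seen.

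The number of members with a value differed between states. Its median was 230 in proNeu-1, 203 in IG2, 135 in stateless and 137.5 in Multi-Lin-1 cells, over a range from 0 to 265. Median genes detected were 4127.5, 3940, 2613 and 2950 in the same order. Over the 96 cells the number of members and of genes detected had a Spearman rho of 0.86 and a Pearson r of 0.85. Fewer detected members and fewer reads cannot be told apart here.

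A member was called different between states where mean PSI differed by at least 0.2 with at least 5 cells in each. Between IG2 and Multi-Lin-1, 14 of 314 members passed (4.46%), where 4.71% of all events did. Of these, 9 members were higher in IG2, against 2.44% of all events, and 5 were lower, against 2.27%. Between proNeu-1 and IG2, 12 of 304 members passed (3.95%), against 3.76% of all events. In proNeu-1 6 members were higher, against 1.89% of all events, and 6 were lower, against 1.87%. Between stateless and Multi-Lin-1 cells, 7 of 275 members passed (2.55%), against 5.53% of all events. In stateless cells 2 members were higher, against 2.87% of all events, and 5 were lower, against 2.66%. The first 2 shares are near those of all events and the third is below it. The median absolute difference was larger in members in each comparison: 0.0153 against 0.00402 over all events between IG2 and Multi-Lin-1, 0.0135 against 0.00345 between proNeu-1 and IG2, and 0.00939 against 0.000725 between stateless and Multi-Lin-1 cells. Members share junctions, and these medians are descriptions. The counts rest on 8, 8 and 3 2-gene junctions, and with at least 8 cells in each state they were 2, 3 and 0. The comparisons share cells of IG2 and of Multi-Lin-1.

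Kif22 gave the 5 members with lower PSI in IG2 than in Multi-Lin-1. For its junction from exon 10 to 11 PSI was from 0 to 0.901 in 22 IG2 cells, with a median of 0, and from 0 to 1 in 7 Multi-Lin-1 cells, with a median of 0.969. The mean was 0.270 ± 0.357 in IG2 and 0.564 ± 0.528 in Multi-Lin-1, a difference of -0.295 that is smaller than either SD. The states overlap over nearly the whole range. The difference was -0.285 in cells numbered 078 and -0.266 in those numbered 079, with 2 and 5 Multi-Lin-1 cells. The same junction was at 0.325 ± 0.443 in 10 stateless cells. Over all cells of each state, Kif22 itself was detected in 15 of 31 IG2 and 7 of 26 Multi-Lin-1 cells. These counts take in cells without a PSI value, so they do not describe the 22 and 7 cells compared. The part of Kif22 expression in this difference was not tested.

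Mfap1a, a spliceosome protein, gave 5 of the 9 members higher in IG2. For its junction from exon 4 to 5, against the join to Mfap1b, PSI was 1 in all 8 IG2 cells. It ranged from 0 to 1 in 6 Multi-Lin-1 cells, with a median of 0.779 and a mean of 0.669 ± 0.409. The difference was 0.33, and 3 of the 6 Multi-Lin-1 cells were at 1 as well. It was 0.18 within the cells numbered 078 (2 against 3 cells) and 0.48 within those numbered 079 (6 against 3).

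The widest difference in that comparison was at Arel1, a ubiquitin ligase joined to Npc2, a cholesterol-binding protein of the lysosome. For the junction from exon 8 to 9, PSI ranged from 0 to 1 in 8 IG2 cells, with a median of 0.633 and a mean of 0.523 ± 0.477. It was 0 in all 8 Multi-Lin-1 cells, and 3 of the IG2 cells were at 0 too. The difference of 0.52 was 0.70 in cells numbered 078 (4 against 1 cell) and 0.34 in cells numbered 079 (4 against 7). In 6 proNeu-1 cells it ranged from 0 to 0.964, with a median of 0.

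Between proNeu-1 and IG2, 5 of the 6 higher members were junctions within Slc28a2, set against joins to Gm14085. For exons 5 to 6 PSI was from 0.867 to 1 in 7 proNeu-1 cells, with a median of 0.974, and from 0 to 1 in 11 IG2 cells, with a median of 0.818. The means were 0.948 ± 0.059 in proNeu-1 and 0.562 ± 0.470 in IG2, a difference of 0.39. The proNeu-1 cells lie within the range of the IG2 cells. The difference was 0.70 in cells numbered 078 and 0.21 in cells numbered 079, over 2 against 4 and 5 against 7 cells. For the other 4 Slc28a2 members it was from 0.44 to 0.56 in 078 and from 0.002 to 0.017 in 079.

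Sugp1 and Snw1, a spliceosome component joined to Sptlc2 of sphingolipid synthesis, gave 4 of the 6 members lower in proNeu-1. For Sugp1 exons 12 to 13 PSI averaged 0.0611 ± 0.175 in 10 proNeu-1 cells and 0.338 ± 0.421 in 20 IG2 cells. Both states had a median of 0, and the difference of -0.28 was smaller than the SD in IG2. For Snw1 exons 13 to 14 the 5 proNeu-1 cells had a median of 0.444 and the 11 IG2 cells a median of 1, over a range from 0 to 1 in both. That difference, -0.45, was -0.022 within 078 and -0.75 within 079.

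**Figure D5:**
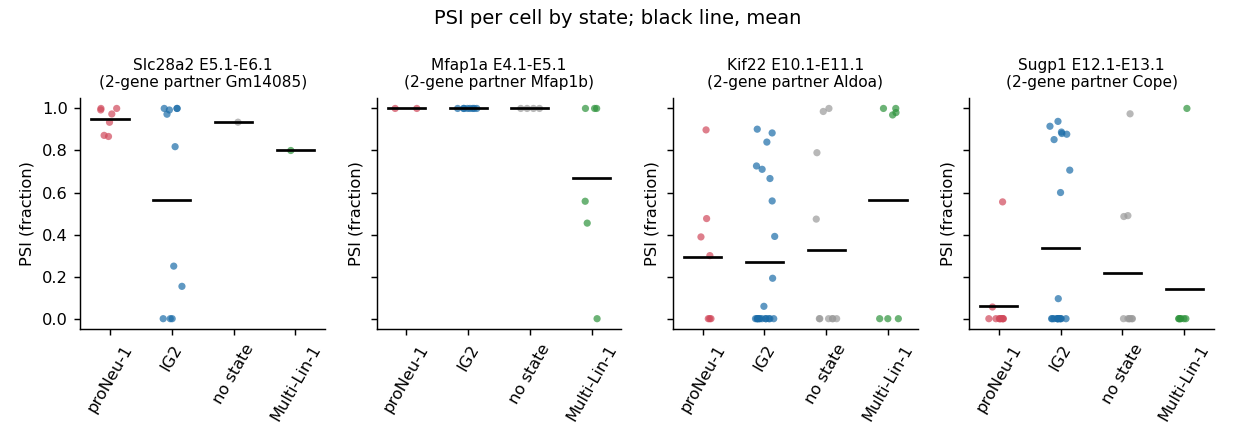
PSI per cell (vertical axis) by state (horizontal axis) for within-gene junctions of Slc28a2, Mfap1a, Kif22 and Sugp1 whose background is a 2-gene junction, 1 point per cell, with the mean as a black line. Points of different states overlap in every panel, and many cells lie at 0 or 1.

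In cells without a state, the 2 members higher than in Multi-Lin-1 were at Mfap1a and at Gmps, a GMP synthetase joined to Gm20656. For Gmps exons 15 to 16 PSI was 1 in all 6 stateless cells and in all 15 IG2 cells. It ranged from 0.250 to 1 in 7 Multi-Lin-1 cells, 5 of which were at 1. For Mfap1a exons 1 to 2 PSI averaged 0.914 ± 0.192 in 5 stateless cells and 0.714 ± 0.488 in 7 Multi-Lin-1 cells, and the difference was -0.014 in cells numbered 078. The 5 members lower in stateless cells were all junctions within Kif22, with differences from -0.32 to -0.21.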

How the data were processed

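Expression was deposited by the authors as log2 values per gene, and log2(TPM + 1) was turned back to TPM, which summed to 1e+06 in each cell. Splicing was deposited by the authors as a fraction per event (PSI). Per the submitters' processing notes, Bowtie2, RSEM and STAR and the builds mm9 and mm10 were used, with no versions or roles given. Of the ends labelled as exon boundaries in within-gene junctions of the members, 591 of 624 (94.7%) matched GENCODE M21 exon ends, so coordinates were read as GRCm38. Read counts were not given, so no depth filter could be set. The 1142 splicing columns and 511 state entries that no label maps to a sample were not used.

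The members, lists and named genes were chosen with earlier results of these data known. Named events were the 8 with values in the most cells, the 8 with mean PSI nearest 0.5, up to 4 per direction of each state comparison and 4 per relation of the genes; other named pairs were chosen after their values were seen. The relation had been defined on the examined junction, and the 2-gene junction was used instead, since it was mostly the background. Gene likeness came from blastn 2.17.0 on GENCODE transcripts, with at least 200 bases at 80% identity. Whether both ends lie in 1 GENCODE gene was checked after the data were seen. Base differences are the fewest over annotated transcripts. Of 170 gene IDs 168 were in GENCODE and 159 had an expression row. Python 3.11.15, pandas 2.3.3 and SciPy 1.17.1 were used. The calculation of the state comparison was tested on simulated PSI values, around 0.5 in unchanged events. Member values were mostly 0 (55.8%) or 1 (34.3%), so that check does not gauge how often such differences arise by sampling here. Intervals are exact Clopper-Pearson at 95% and, like limits for a count of 0 (3 of the total), cover the counting of cells only. Reads carry no molecular identifiers.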

Additional observations from a re-analysis of the deposited data

How the results depend on the processing

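The counts follow the thresholds. A value in at least 10 cells gave 863 members, and counting each 2-gene junction once gave 139. For genes both neighbouring and paralogous, neighbouring only and paralogous only, a limit of 50 kb gave 38, 46 and 66; a limit of 200 kb gave 164 neighbouring only, 12 paralogous only and 106 neither. Adding sequence likeness, chosen after seeing the data, gave 47 paralogous only. At least 30 cells with a value gave 63 neighbouring only and 53 with an intermediate PSI. For the 3 state comparisons in the order of the text, 8 cells per state gave 2, 3 and 0 members, a difference of 0.1 gave 64, 44 and 43, a difference of 0.3 gave 5, 2 and 2, and each 2-gene junction counted once gave 8, 8 and 3. Cells numbered 078 alone gave 6 and 7 in the first pair of comparisons, and cells numbered 079 alone 4, 6 and 0. Members with both genes detected came to 77 over cells with a 2-gene share above 0. The median over members of the mean PSI, 0.173, moved with the setting: it was 0 with the median over cells, 0.104 with at least 30 cells and 0.5 with each 2-gene junction once. Paralogy by protein identity alone was not run, since no protein table was used here. No paired analysis was possible because no result comes from a test and the states share no replicate numbers; differences within label numbers 078 and 079 stand beside the values. All values come from 1 sample of unknown read depth; a PSI of 0 or 1 may rest on few reads.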
